A study of Mus musculus with 12 samples.

Results

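The 58 genes described here are the amino acid transporter genes of the mouse in 7 solute carrier families, SLC1, SLC3, SLC6, SLC7, SLC36, SLC38 and SLC43. They were chosen by symbol alone, as every symbol of these families with a plain number at its end, among the 24421 symbols that were counted. Of the 59 symbols that match, Slc7a11 was left out. The cells were B16F10, a mouse melanoma line, in 4 groups of 3 replicates. Control cells received the vehicle, DMSO, which the labels give as 0.025%. Cells of the DAC single treatment received 5-aza-2'-deoxycytidine, an inhibitor of DNA methyltransferases, at 25 nM for 72 h. Cells of the SFN single treatment received sulforaphane, an isothiocyanate of cruciferous vegetables, for 48 h. Cells of the combination treatment (DAC+SFN) received 25 nM DAC for 72 h and 5 µM SFN for the last 48 h. For SFN alone the labels give a dose of 5 nM, while the methods of the study give the micromolar dose in both groups, so by the labels the SFN dose is not matched between these groups. All cells came from a single line in culture, and poly-A RNA was sequenced.

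Cells take up amino acids through carriers of several kinds. Exchangers such as the pair of Slc7a5 and Slc3a2 bring in large neutral amino acids while sending others out, sodium-coupled carriers such as Slc38a2 concentrate small neutral amino acids, and carriers of the lysosome return the products of protein breakdown to the cytosol. Several of these genes, Slc7a5, Slc7a1, Slc38a2 and Slc1a4 among them, are known targets of ATF4, the transcription factor that cells use when amino acids are short, and SFN is known to activate NRF2, which works through another promoter element.

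The depth was 15880957 to 27291436 counted reads per sample. CPM below is the number of counts per 1e+06 counts of a library after TMM scaling. All 7 melanocyte markers were present in every sample, from 300.6 CPM for Mitf to 13400 CPM for Tyrp1. The 3 leukocyte markers summed to at most 0.191 CPM, the 2 keratinocyte markers to at most 0.0910 CPM and the 2 endothelial markers to at most 0.527 CPM, and Cdh5 was at 0 in every sample. Of the 3 fibroblast markers, Dcn had at most 1 count. Their sum, nearly all Col1a1, spanned 17.9 to 314 CPM over the controls, 19.8 to 359 over the DAC samples, 18.1 to 247 over the SFN samples and 25.7 to 247 over the combination samples. Its part in the results below was not tested.

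Of the 58 genes, 28 reached 1 CPM in 3 or more of the 12 samples and were tested, beside 11638 genes in all. The other 30 were under this filter. No read was counted in any sample for 9 of them, which were Slc1a6, Slc38a4, Slc38a5, Slc38a11, Slc6a5, Slc6a11, Slc6a14, Slc7a10 and Slc7a12. A count of 0 allows up to 3 counts, which is at most 0.191 CPM per sample and covers counting error only. The remaining 21 had at most 17 counts in any sample. Among these were the glutamate carriers Slc1a1, Slc1a2 and Slc1a3, with at most 5, 5 and 2 counts, and the heavy chain Slc3a1, with at most 10. Slc43a3, which carries nucleobases, had at most 13 counts, and Slc6a7 at most 17. Slc36a3 had 1, 2 and 3 counts in control replicates 1, 2 and 3 and 15, 10 and 6 with the combination treatment, which was too few to be tested.

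Further members under the filter, given by their highest count, were Slc1a7 (1), Slc36a2 (3), Slc38a8 (3), Slc6a2 (1), Slc6a3 (4), Slc6a4 (4), Slc6a13 (2), Slc6a18 (4), Slc6a19 (4), Slc7a2 (1), Slc7a9 (9), Slc7a13 (3) and Slc7a15 (1). Most of these are known from kidney, gut or brain.

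Levels between genes were compared per kb of exon, the union of all annotated exons of a gene. In control, the heavy chain Slc3a2 had the highest level at 88.3 ± 7.31 CPM per kb (SD, n = 3), followed by its light chain Slc7a5, which carries leucine and other large neutral amino acids, at 83.2 ± 5.23. The taurine carrier Slc6a6 came next at 76.2 ± 6.96. The ranges of mean ± SD of these 3 overlapped, which is no test of their order. The sodium-coupled carrier Slc38a2 stood at 55.8 ± 2.58, apart from Slc38a10 at 45.2 ± 1.11. Slc1a5, an exchanger of glutamine and other neutral amino acids, was at 34.8 ± 4.84 and Slc38a1, a relative of Slc38a2, at 30.6 ± 1.21, which did not differ beyond their spread. Slc7a1, the main carrier of arginine and lysine, was at 27.3 ± 0.663, the creatine carrier Slc6a8 at 21.9 ± 1.59 and Slc1a4, an exchanger of serine, alanine, cysteine and threonine, at 15.9 ± 1.60. Slc1a4, Slc38a7 at 15.9 ± 1.04 and Slc7a6 at 15.2 ± 1.14 lay within their spread of each other. At the low end, Slc38a3 was at 0.158 ± 0.0145. With the longest transcript as the length the order was different for some genes, as Slc38a1 then stood at 72.7 CPM per kb and Slc6a6 at 104.

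**Figure D1:**
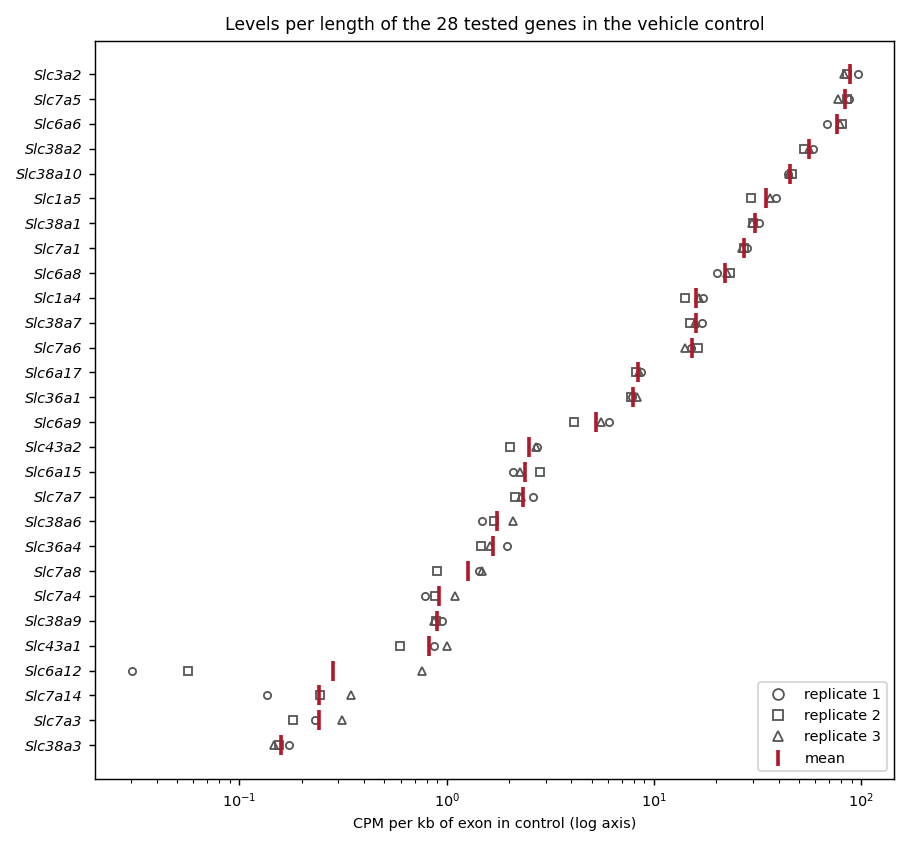
Control level of each of the 28 tested genes as CPM per kb of exon on a log axis, with 1 open symbol per replicate and a bar at the mean of 3. The genes span from 0.158 CPM per kb for Slc38a3 to 88.3 for Slc3a2, and in Slc6a12 replicate 3 stands far to the right of the other two.

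The summed level of the 58 genes was 3618 ± 41.6 CPM in control (SD, n = 3). It was 3661 ± 35.7 CPM in the DAC group, 3465 ± 121 CPM in the SFN group and 3633 ± 254 CPM in the combination group. The SFN samples, at 3604, 3411 and 3380 CPM, overlapped the control samples, at 3666, 3592 and 3597 CPM, and were lower within each of the 3 replicate numbers.

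The promoters of 4 genes are shown, those of 3 genes that fell with SFN and of 1 that rose, since both the ATF4 element and the NRF2 element can be read in such windows. Promoters were taken from RefSeq on GRCm38.p6, the build of the alignments, from 250 bases before to 50 bases after a start site. Of the 58 genes, 40 had at least 1 entry, 61 promoters in all. The letters searched on both strands were TGATGNAA, the core of the element bound by ATF4 with C/EBP factors, and TGACNNNGC, the core of the antioxidant response element bound by NRF2. The letters cannot both match from the same base of a strand. Capitals mark a match. Slc1a4 (chr11:20332664-20332963, minus strand) held the ATF4 letters on the other strand, from 4 bases upstream of the start. Slc38a2 (chr15:96699679-96699978, minus strand) held the NRF2 letters from 27 bases upstream. Slc7a1 (chr5:148399855-148400154, minus strand, the upstream of its start sites) held them on the other strand from 11 bases upstream. Slc38a6 (chr12:73286598-73286897, plus strand) held neither.
Slc1a4: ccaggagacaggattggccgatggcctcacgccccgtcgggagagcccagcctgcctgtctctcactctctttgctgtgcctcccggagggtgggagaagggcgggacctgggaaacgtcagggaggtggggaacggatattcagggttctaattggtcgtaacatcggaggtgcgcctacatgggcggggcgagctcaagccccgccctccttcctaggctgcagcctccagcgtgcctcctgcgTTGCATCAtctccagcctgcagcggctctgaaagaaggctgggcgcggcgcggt
Slc38a2: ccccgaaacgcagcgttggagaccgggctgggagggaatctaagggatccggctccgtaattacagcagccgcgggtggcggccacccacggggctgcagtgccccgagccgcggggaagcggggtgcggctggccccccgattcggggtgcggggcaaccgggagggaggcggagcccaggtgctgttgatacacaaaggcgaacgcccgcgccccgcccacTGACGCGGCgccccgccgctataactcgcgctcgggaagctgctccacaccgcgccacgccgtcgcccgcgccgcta
Slc7a1: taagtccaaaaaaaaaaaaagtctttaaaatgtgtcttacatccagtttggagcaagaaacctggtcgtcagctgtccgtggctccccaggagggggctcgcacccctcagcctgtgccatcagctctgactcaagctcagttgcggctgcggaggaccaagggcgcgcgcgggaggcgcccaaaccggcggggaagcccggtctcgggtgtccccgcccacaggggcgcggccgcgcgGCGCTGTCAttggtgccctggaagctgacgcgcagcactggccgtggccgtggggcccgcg
Slc38a6: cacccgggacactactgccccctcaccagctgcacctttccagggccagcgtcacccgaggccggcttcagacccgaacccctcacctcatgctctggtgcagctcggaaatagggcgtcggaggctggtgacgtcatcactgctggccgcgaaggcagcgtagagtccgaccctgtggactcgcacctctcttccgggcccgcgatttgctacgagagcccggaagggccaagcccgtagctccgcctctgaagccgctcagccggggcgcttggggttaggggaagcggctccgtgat

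All 4 windows were rich in CpG, the site of DNA methylation, with 21, 41, 27 and 26 CpGs in the order shown. The median was 7 over the 32851 promoters of the table and 20 over the tested members with a promoter entry. A high count was thus not particular to these 4. Of all 32851 promoters, 3.97% held the ATF4 letters and 12.4% the NRF2 letters. Of the 17 members that changed in some comparison of 2 groups, 9 rose and 8 fell, and 7 and 6 of them had a promoter entry. The ATF4 letters were in 1 of the 7 and 1 of the 6 (Slc7a7 and Slc1a4), and the NRF2 letters in 1 of the 7 (Slc36a1) and 4 of the 6 (Slc38a2, Slc43a1, Slc6a9 and Slc7a1). Of all tested members, 19 had an entry, and 2 of these held the ATF4 letters and 6 the NRF2 letters in some promoter. Genes can have several promoters, and 4.51% and 14% of all genes with an entry held these letters in at least 1. Slc1a5, Slc38a3, Slc6a8 and Slc7a5 had no entry. A match describes letters only and is not a bound site.

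With the SFN single treatment, the neutral amino acid carriers Slc1a4, Slc38a2 and Slc38a7 and the arginine carrier Slc7a1 fell, with changes of -24.9%, -21.9%, -23.3% and -24.4%, and the creatine carrier Slc6a8 and Slc38a6 rose by 46.8% and 45.2%. A gene counts as changed at an adjusted p under 0.05 (edgeR's quasi-likelihood test with Benjamini-Hochberg adjustment over all 11638 genes, with the replicate number as a block). Of the 28 tested genes, 8 changed (28.6%), where 13.9% of all genes tested did. In all, 2 of the 28 rose (7.14%, beside 8.27% of all genes) and 6 fell (21.4%, beside 5.65%). None reached a 2-fold change, as 1.28% of all genes did. The median size of the log2 change, without its sign, was 0.198 over the 28 and 0.119 over all genes. Without the replicate block none of the 28 changed, and 14 had an unadjusted p under 0.05 with it, which is 50% beside 28.8% of all genes. These are bulk samples of a culture, so fewer cells with a transcript and less of it per cell cannot be told apart.

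Slc1a4 (Entrez 55963, chr11:20302180-20332713) was at 67.6, 55.5 and 64.5 CPM in control replicates 1, 2 and 3. The DAC samples had 71.2, 59.0 and 70.5 CPM, the SFN samples 52.8, 40.6 and 47.9 CPM and the combination samples 56.4, 44.9 and 50.9 CPM. Every SFN sample was below every control sample. The log2 change with SFN was -0.41 (SE 0.057, adjusted p = 0.000288). Slc38a2 (Entrez 67760, chr15:96687392-96699730), which is known to be induced when amino acids are withdrawn, was at 516, 470 and 495 CPM in control. Samples given DAC had 485, 444 and 463 CPM, the SFN samples 420, 342 and 398 CPM and the combination samples 399, 350 and 401 CPM. Both groups with SFN lay below both groups without it, and the log2 change with SFN was -0.36 (SE 0.052, adjusted p = 0.000451).

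Slc7a1 (Entrez 11987, chr5:148327410-148399904) was at 322, 314 and 307 CPM in control. In the DAC group the values were 320, 298 and 301 CPM, in the SFN group 264, 217 and 235 CPM and in the combination group 290.2, 211 and 257 CPM. It fell in each replicate with SFN, by 0.40 on the log2 scale (SE 0.069, adjusted p = 0.00145). Slc38a7 (Entrez 234595, chr8:95835920-95853539), a lysosomal carrier of glutamine and asparagine, was at 70.3, 61.7 and 65.5 CPM in control. DAC samples stood at 66.8, 61.1 and 65.9 CPM, SFN samples at 57.3, 44.6 and 50.1 CPM and combination samples at 63.1, 48.1 and 53.9 CPM. The SFN samples did not overlap with control, and the log2 change was -0.38 (SE 0.064, adjusted p = 0.00115).

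Of the 2 genes that rose, Slc6a8 belongs to SLC6 and Slc38a6 to SLC38, the family of Slc38a2 and Slc38a7. The creatine carrier Slc6a8 (Entrez 102857, chrX:73673150-73682502) was at 105, 121 and 117 CPM in control. The DAC samples had 106, 143 and 123 CPM, the SFN samples 152, 200.4 and 154 CPM and the combination samples 177, 202 and 144 CPM. It rose with SFN by 0.55 (log2, SE 0.085, adjusted p = 0.000623), with no overlap between SFN and control. Slc38a6 (Entrez 625098, chr12:73286779-73354049), a less studied relative of Slc38a2, was at 11.5, 13.1 and 16.2 CPM in control. Samples given DAC had 15.3, 16.2 and 18.8 CPM, the SFN samples 18.6, 19.0 and 21.4 CPM and the combination samples 19.3, 20.1 and 21.5 CPM. The rise with SFN was 0.54 (log2, SE 0.088, adjusted p = 0.00108), and here too the SFN samples lay above all control samples.

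**Figure D2:**
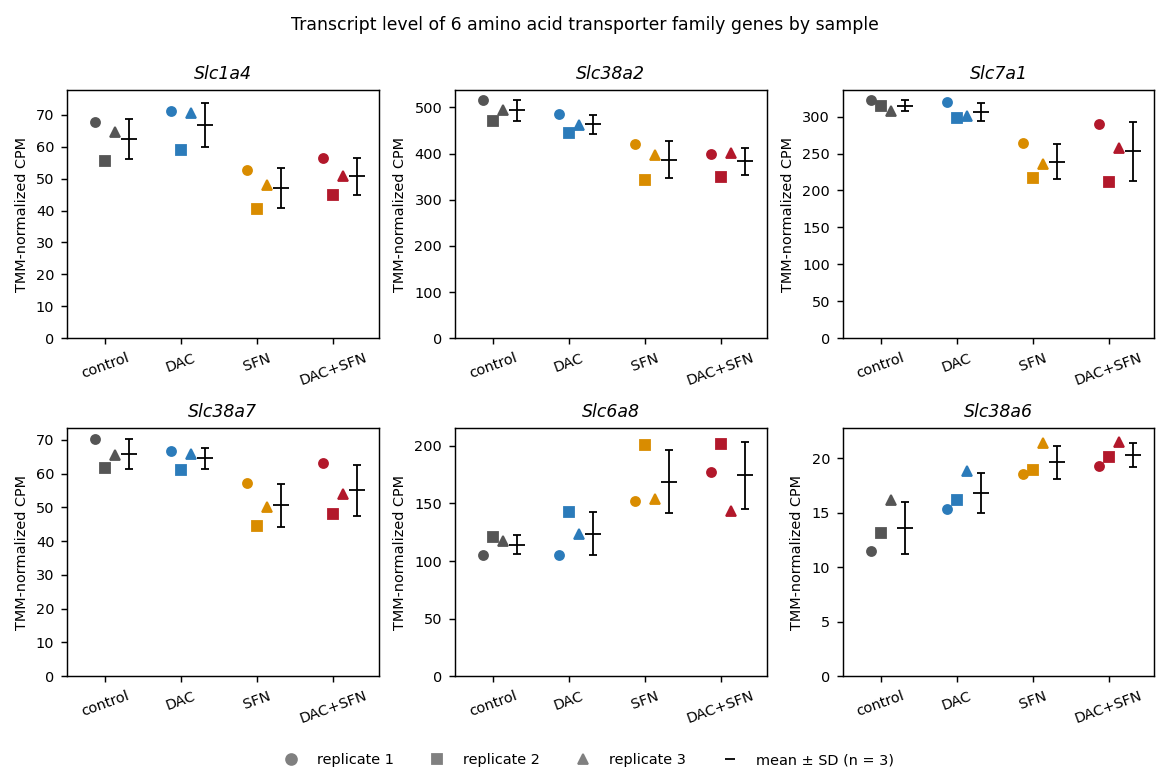
TMM-normalized CPM (vertical axis, from 0) of 6 genes in the 4 groups, with 1 symbol per replicate and the mean ± SD of 3 in black. Slc1a4, Slc38a2, Slc7a1 and Slc38a7 are lower in the SFN samples than in every control sample, and Slc6a8 and Slc38a6 are higher.

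These 6 changes with SFN were kept when any single sample of the compared groups, or any replicate number, was left out. The other 2 were not. Slc7a5 (Entrez 20539) was at 324, 316 and 287 CPM in control and 292, 227 and 246 CPM with SFN, so the groups overlapped, and its log2 change of -0.28 (adjusted p = 0.0245) reached an adjusted p of up to 0.176 in 5 of 9 such fits. The glycine carrier Slc6a9 was at 31.1, 21.3 and 28.4 CPM in control and 23.8, 19.1 and 22.1 CPM with SFN, with a log2 change of -0.30 (adjusted p = 0.0308) that was lost in 8 of 9, with an adjusted p of up to 0.255. The exons of Slc6a9 also share 1555 bases with genes on the opposite strand, and the sources used here do not state whether counting used the strand, so its counts are uncertain.

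With the combination treatment, the same 7 of the 8 genes again differed from the control, and 9 more did. Slc6a8 and Slc38a6 rose by 51.8% and 50.3%, and Slc38a2 fell by 22.4%. Of the 28 genes, 16 changed (57.1%, beside 31.6% of all genes). In all, 9 rose (32.1%, beside 17%) and 7 fell (25%, beside 14.7%). The 9 include Slc38a3, which passed the filter only through the groups where it was high. None of the 28 reached a 2-fold change, beside 2.66% of all genes. The median size of the log2 change was 0.259 over the 28 and 0.164 over all genes. Without the replicate block 5 of the 28 changed, Slc38a2, Slc38a6, Slc43a2, Slc6a8 and Slc7a7. The count was 10 without control replicate 1, 10 without combination replicate 1, 9 without replicate number 1 and 7 without replicate number 2. Since both comparisons use the same control samples, their shared genes are not independent.

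Among the genes that fell, Slc38a2 had a log2 change of -0.37 (adjusted p = 0.000147), Slc1a4 of -0.30 (adjusted p = 0.00116), Slc7a1 of -0.32 (adjusted p = 0.00280) and Slc38a7 of -0.26 (adjusted p = 0.00609). For Slc1a4 and Slc38a7, 1 combination sample reached into the range of the control. Slc7a5 was at 303, 210 and 244 CPM, a log2 change of -0.30 (adjusted p = 0.00813). Slc43a1, a facilitative carrier of branched-chain amino acids, was at 4.97, 3.40 and 5.75 CPM in control. In the DAC group the values were 5.22, 5.04 and 5.84 CPM, in the SFN group 4.05, 2.48 and 3.93 CPM and in the combination group 3.37, 1.72 and 4.02 CPM. Its log2 change was -0.64 (SE 0.188, adjusted p = 0.0175), with 1 combination sample inside the control range. Slc1a5 was at 162, 123 and 151 CPM in control and 136, 122 and 126 CPM with the combination treatment. Its change of -0.17 (adjusted p = 0.0405) was the smallest of those called.

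Among the genes that rose, Slc6a8 had a log2 change of 0.60 (adjusted p = 0.000136) and Slc38a6 of 0.59 (adjusted p = 0.000231). Slc43a2, a relative of Slc43a1 with a like substrate range, was at 27.4, 20.3 and 27.2 CPM in control. DAC samples stood at 29.5, 28.7 and 32.2 CPM, SFN samples at 25.8, 28.2 and 24.2 CPM and combination samples at 32.2, 33.1 and 33.3 CPM. All 3 combination samples were above the control, and the change was 0.40 (log2, adjusted p = 0.00900). So the 2 carriers of this family that were tested moved in opposite directions. The lysosomal proton-coupled carrier Slc36a1 was at 43.9, 43.4 and 46.6 CPM in control and 56.3, 50.6 and 50.5 CPM with the combination treatment. There was no overlap, and the log2 change was 0.23 (adjusted p = 0.0119). Its call was lost in 4 of the 9 fits that left out a sample or a replicate number. The calls of Slc38a10, Slc7a7 and Slc7a14, given below, were also lost in 4, that of Slc7a5 in 3 and that of Slc43a2 in 2.

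Slc7a7, a light chain that exchanges cationic for neutral amino acids, was at 8.65, 7.06 and 7.60 CPM in control and 10.8, 11.97 and 9.43 CPM with the combination treatment, without overlap (log2 change 0.47, adjusted p = 0.0170). Slc38a10 rose by 0.25 (log2, adjusted p = 0.0118) from 285, 298 and 287 CPM to 391, 355 and 298 CPM, and the groups overlapped through replicate 3. Slc6a17, a carrier of synaptic vesicles, rose by 0.21 (adjusted p = 0.0324) from 89.1, 83.9 and 86.6 CPM to 118, 96.9 and 87.6 CPM. The groups overlapped here as well. Slc7a14, a relative of the cationic carriers, was at 1.33, 2.41 and 3.39 CPM in control and 3.004, 4.60 and 4.48 CPM in the combination samples, a log2 change of 0.79 (adjusted p = 0.0116) with overlap. Slc38a3, a system N carrier of glutamine, was at 0.920, 0.817 and 0.770 CPM in control. The DAC samples had 1.12, 1.53 and 2.40 CPM, the SFN samples 0.847, 0.866 and 0.859 CPM and the combination samples 1.27, 1.72 and 1.77 CPM. Its change was 0.91 (log2, SE 0.288, adjusted p = 0.0269). Both groups with DAC lay above both groups without it. Slc38a3 reached 1 CPM in those groups alone, so it passed the filter only through the samples where it was high, and its call is no independent support.

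Opposite-strand exons overlap 922 bases of Slc43a2, 367 of Slc38a10, 232 of Slc7a7, 182 of Slc38a9 and 117 of Slc6a6, which leaves their counts uncertain in the same way as for Slc6a9. Of the members named for their roles 6 did not pass the test with the combination treatment. The log2 changes were 0.16 for Slc6a6 (adjusted p = 0.0532), 0.18 for Slc3a2 (adjusted p = 0.0694), 0.24 for Slc38a9, the arginine sensor of the lysosome (adjusted p = 0.0720), -0.22 for Slc6a9 (adjusted p = 0.0720) and 0.06 for Slc7a6 (adjusted p = 0.567), and Slc43a3 was under the filter. The other 7 tested members, Slc36a4, Slc38a1, Slc6a12, Slc6a15, Slc7a3, Slc7a4 and Slc7a8, passed in none of the 5 comparisons of 2 groups. Slc3a2 passed without combination replicate 3 (adjusted p = 0.00413) and without replicate number 3 (adjusted p = 0.00350). Slc6a6 passed with DESeq2 (adjusted p = 0.0457), without combination replicate 2 (adjusted p = 0.0132) and without replicate number 2 (adjusted p = 0.0471).

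**Figure D3:**
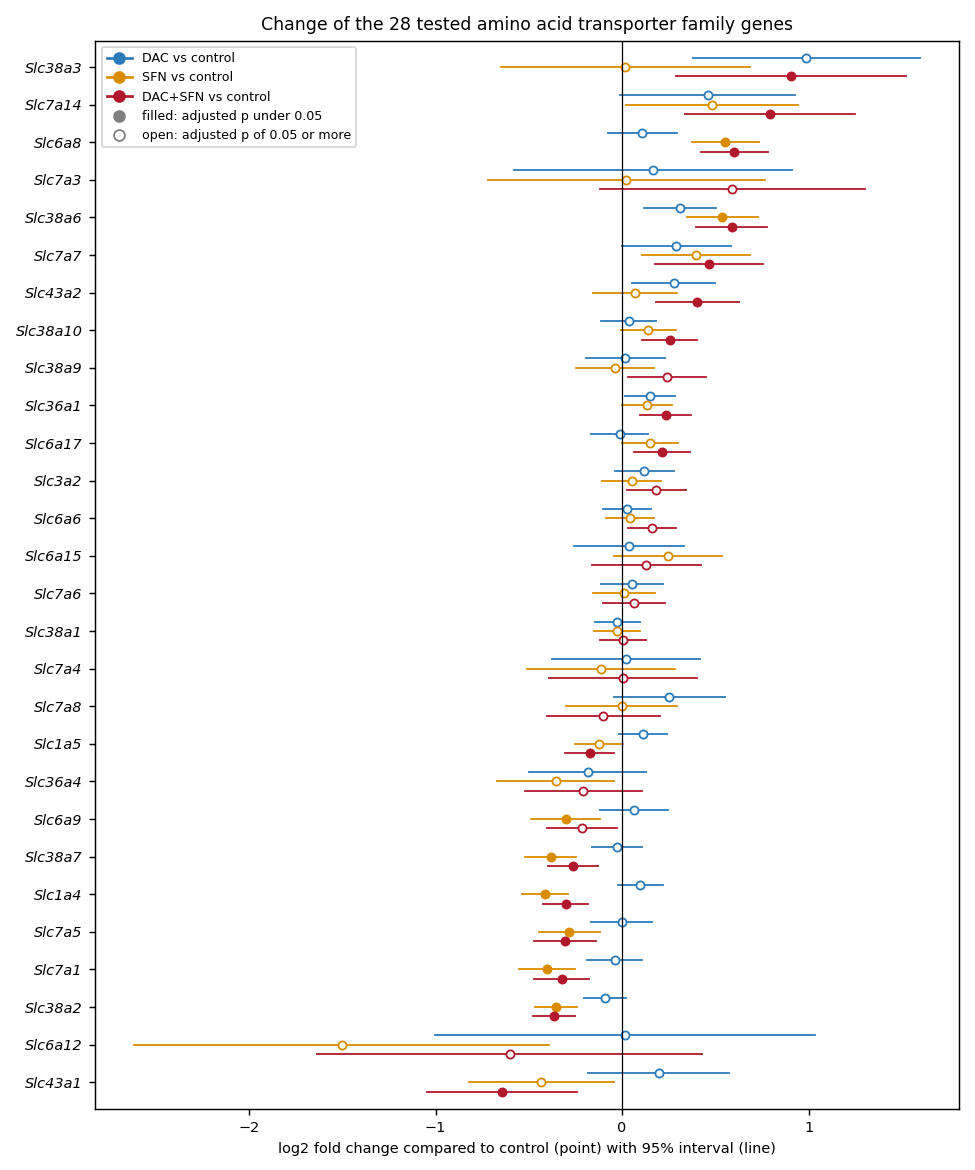
Log2 fold change compared to control (horizontal axis) of the 28 tested genes with DAC, SFN and the combination treatment, as a point with its 95% interval and filled where the adjusted p was under 0.05. The DAC points are all open, 8 SFN points and 16 combination points are filled, and SFN and combination points lie on the same side of 0 for the genes that are filled in both.

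Adding SFN to DAC gave 12 changed genes of 28 (42.9%, beside 16.1% of all genes). In all, 4 rose (14.3%, beside 9.55%) and 8 fell (28.6%, beside 6.6%). The median size of the log2 change was 0.231 over the 28 and 0.126 over all genes. Here the reference was DAC and not the control. Slc1a4 fell by 0.40 on the log2 scale (adjusted p = 0.000445), Slc38a2 by 0.28 (adjusted p = 0.00309), Slc1a5 by 0.29 (adjusted p = 0.00623), Slc43a1 by 0.84 (adjusted p = 0.00799), Slc7a1 by 0.28 (adjusted p = 0.0133), Slc7a5 by 0.30 (adjusted p = 0.0168), Slc38a7 by 0.24 (adjusted p = 0.0218) and Slc6a9 by 0.28 (adjusted p = 0.0411). For Slc1a5, all combination samples were below the DAC samples of 168, 136 and 165 CPM. Slc6a8 rose by 0.49 (adjusted p = 0.00170), and Slc6a17 by 0.23, Slc38a6 by 0.28 and Slc38a10 by 0.22 (adjusted p of 0.0414, 0.0426 and 0.0436). Over the 9 fits that left out a sample or a replicate number, the calls of Slc38a6 and Slc6a9 were lost in 8 and those of Slc6a17, Slc38a10 and Slc38a7 in 6.

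In all, 7 genes changed in all 3 comparisons that add SFN or the combination treatment. They were Slc1a4, Slc38a2, Slc38a6, Slc38a7, Slc6a8, Slc7a1 and Slc7a5. These comparisons share control or combination samples, so their overlap is not independent. The matching count over all genes was not taken. Without the replicate block, none of the 28 changed between the combination treatment and DAC. With only the compared groups in the fit 3 did, in place of 12. Among the calls lost were those of Slc1a5, Slc38a2, Slc7a1 and Slc7a5, at adjusted p of 0.0544, 0.0504, 0.0655 and 0.0596. The count was 6 without DAC replicate 2, 6 without combination replicate 2, 2 without replicate number 1 and 4 without replicate number 2.

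With the DAC single treatment, none of the 28 genes changed by DESeq2 or by edgeR with all samples in the fit. Of all genes, 0.18% did by edgeR. With only the compared groups in the edgeR fit, Slc38a6 and Slc43a2 changed (adjusted p of 0.0453 and 0.0427). With all samples, 4 members (14.3%) had an unadjusted p under 0.05, beside 10.1% of all genes. These were Slc38a3, with a log2 difference of 0.99 from control, Slc38a6 with 0.31, Slc43a2 with 0.28 and Slc36a1 with 0.15. Their adjusted p ran from 0.206 to 0.429. Slc38a3 reached 1 CPM only in the groups with DAC, so it entered the test through the samples where it was high. The 95% interval for Slc7a5 ran from -0.167 to 0.162 and that for Slc1a4 from -0.02 to 0.22, so larger changes than these were outside the interval. Adding DAC to SFN, where the labels do not match the SFN dose, gave no change in the 28 either. This held by DESeq2 and by edgeR with all samples, where 1.61% of all genes changed by edgeR. With only the compared groups in the edgeR fit, Slc43a2 (adjusted p = 0.00501) and Slc38a3 (adjusted p = 0.0448) changed. With all samples, 3 members (10.7%) had an unadjusted p under 0.05, beside 17.8% of all genes. They were Slc43a2 (log2 difference 0.33), Slc38a3 (0.89) and Slc38a9 (0.28), with adjusted p of 0.105, 0.112 and 0.149. The same limit of the filter holds for Slc38a3 here.

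For the interaction, which asks whether the effect of SFN differs in the presence of DAC and rests on the same unmatched labels, no member and 0% of all genes passed by edgeR, and no member had an unadjusted p under 0.05, beside 5.87% of all genes. By DESeq2 no member passed either. The closest was Slc38a6, at a log2 value of -0.26 with a 95% interval from -0.53 to 0.01 (adjusted p = 0.852). Between the combination treatment and SFN, the log2 difference was 0.11 for Slc1a4 with a 95% interval from -0.01 to 0.23, -0.01 for Slc38a2 with an interval from -0.12 to 0.10 and 0.05 for Slc6a8 with an interval from -0.13 to 0.23.

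Grouped by role, none of the heavy chains changed, with 1 of 2 tested. Of the light chains of exchangers, 4 of 9 were tested, and with the combination treatment 1 rose and 1 fell (Slc7a7 and Slc7a5). Of the cationic carriers and relatives, 4 of 5 were tested, and 1 rose and 1 fell (Slc7a14 and Slc7a1). Of SLC1, 2 of 7 were tested and both fell, which were Slc1a4 and Slc1a5. Of SLC38, 7 of 11 were tested, of which 3 rose and 2 fell. Of SLC36, 2 of 4 were tested and 1 rose. Of SLC43, 2 of 3 were tested with 1 in each direction, and of SLC6 6 of 17 with 2 that rose and none that fell. Among all genes, 17% rose and 14.7% fell with the combination treatment, and the roles were not tested against these shares. Over the 9 fits that left out a sample or a replicate number, the calls of Slc38a3 were lost in 7, those of Slc1a5 and Slc6a17 in 6 and those of Slc43a1 in 5.

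Slc7a5 works only in a pair with Slc3a2. The ratio of Slc7a5 to Slc3a2, each as CPM per kb, was 0.904, 0.994 and 0.935 in control. Samples given DAC had ratios of 0.872, 0.863 and 0.874, the SFN samples of 0.799, 0.626 and 0.843 and the combination samples of 0.710, 0.523 and 0.821. Every treated sample was below every control sample. The means were 0.944 ± 0.0459, 0.870 ± 0.00568, 0.756 ± 0.115 and 0.685 ± 0.151 (SD, n = 3). This ratio was chosen after its values were seen, so it is given as a description with no test.

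**Figure D4:**
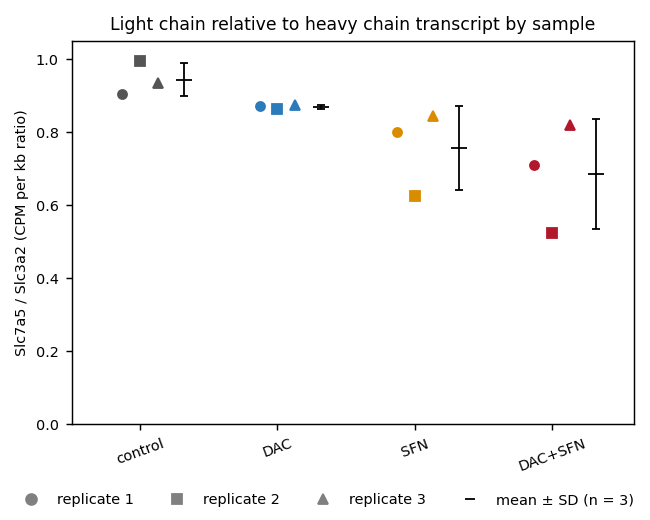
Ratio of Slc7a5 to Slc3a2 (CPM per kb over CPM per kb, axis from 0) by group, with 1 symbol per replicate and the mean ± SD of 3 in black. The 9 treated samples lie between 0.523 and 0.874, all below the control samples at 0.904 to 0.994.

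Genes that work with the transporters were followed as 4 hand-written lists that hold no member. The first was the 20 cytosolic aminoacyl-tRNA synthetases, which load amino acids onto tRNA. With SFN 10 fell and none rose, and with the combination treatment 10 fell and none rose, which is 50% in each, while 5.65% and 14.7% of all genes fell. The median log2 changes were -0.17 and -0.16, beside 0.00 and 0.01 over all genes tested. Cars, Gars and Mars changed by -0.48, -0.32 and -0.46 with the combination treatment. Their adjusted p were 8.4e-05, 0.000605 and 0.000705. Without the replicate block the count of 10 became 0 for SFN and 6 for the combination treatment.

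The second list was 23 tested genes of non-essential amino acid synthesis. With SFN 3 rose and 10 fell, and with the combination treatment 5 rose and 12 fell, at medians of -0.14 and -0.30. The share that fell was 43.5% with SFN and 52.2% with the combination treatment, beside 5.65% and 14.7% of all genes. The share that rose was 13% and 21.7%, beside 8.27% and 17%. Asns, which makes asparagine, was at 308 ± 27.5 CPM in control (SD, n = 3). The DAC group was at 301 ± 35.0 CPM, the SFN group at 197 ± 22.7 CPM and the combination group at 198 ± 27.4 CPM. Asns had a log2 change of -0.65 with SFN (adjusted p = 1.78e-05) and -0.64 with the combination treatment (adjusted p = 7.23e-06). Shmt2, the mitochondrial enzyme that makes glycine from serine, was at 401 ± 30.8 CPM in control and 255 ± 9.53 with the combination treatment, -0.65 (adjusted p = 4.53e-06). Phgdh, the first enzyme of serine synthesis, was at 474 ± 16.3 CPM in control and 316 ± 38.7 with the combination treatment, -0.59 (adjusted p = 9.06e-06). All 3 of these genes fell in each replicate and did not overlap with control. With the combination treatment the count was 8 without the replicate block, in place of 17, and 10 without replicate number 1. For SFN it was 1 without the block, in place of 13.

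Of the 33 genes of amino acid sensing by mTORC1, the kinase complex that reads amino acid supply, 1 rose and 1 fell with SFN, and 6 rose and 6 fell with the combination treatment. That is 6.06% with SFN, beside 13.9% of all genes, and 36.4% with the combination treatment, near the 31.6% of all genes. The medians were -0.02 and 0.02. Gatsl3, the symbol here for the arginine sensor CASTOR1, rose by 0.81 (log2, adjusted p = 0.000419) from 8.92 ± 0.441 to 15.9 ± 4.63 CPM. Depdc5, of the complex that holds mTORC1 in check, fell by 0.34 (adjusted p = 0.00168). Sesn2, a leucine sensor, rose by 0.43 (adjusted p = 0.00213), at 50.9 ± 5.72 CPM in control and 68.7 ± 10.6 with the combination treatment. It was at 66.9 ± 4.26 CPM with DAC (log2 change 0.40, adjusted p = 0.0880) and 53.8 ± 8.15 with SFN (0.08, adjusted p = 0.617). Between the combination treatment and DAC its log2 change was 0.03 (adjusted p = 0.877). The SFN count of 2 was 0 without the replicate block. The combination count of 12 was 2 without the replicate block, 2 without replicate number 1 and 5 without replicate number 2. It was 6 without control replicate 1, control replicate 2 or combination replicate 1, which were left out in turn.

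Of 24 other amino acid and peptide carriers and their partners that the choice by symbol did not take, 12 were tested. With the combination treatment 2 rose and 3 fell, and with SFN 2 rose and 2 fell, at medians of -0.10 and -0.12. That is 41.7% with the combination treatment, beside 31.6% of all genes, and 33.3% with SFN, beside 13.9%. With DAC alone no gene of the 4 lists changed by the test. With the combination treatment Ctns, the lysosomal exporter of cystine, fell by 0.38 (adjusted p = 0.000810). Slc15a4, a lysosomal carrier of histidine and peptides, fell by 0.30 (adjusted p = 0.00486). Slc17a8, a vesicular glutamate carrier, rose by 1.74 (adjusted p = 0.00392). It was at 0.594 ± 0.537 CPM in control and 1.88 ± 0.745 with the combination treatment, so its change rests on few counts. By replicate, its log2 changes were 3.59, 1.22 and 1.03. None of this list changed without the replicate block in either comparison. The count fell to as low as 0 with SFN, without replicate number 2, and was at least 3 with the combination treatment in every fit that left out a sample.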

How the data were processed

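RNA was sequenced from 12 samples of B16F10 cells. Per the labels and the study's methods, the authors checked reads with FastQC 0.11.7, trimmed them with Trimmomatic 0.38, aligned them to mm10 with TopHat2 2.1.1 and counted uniquely aligned reads with HTSeq in Blast2GO. The authors deposited raw counts per gene symbol, with no filter or normalization. The annotation and strand setting of counting are not given in the sources used here. Total counts per sample were 15880957 to 27291436, so 1 CPM stood for 15.9 to 27.3 counts. In the files 1 Entrez identifier is given to both Slc1a5 and Slc1a7, so genes were followed by symbol.

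The 11638 genes that reached 1 CPM in 3 or more of 12 libraries were scaled by TMM and tested with glmQLFTest in edgeR 4.0.16 (legacy fit, R 4.3.3), with all samples in 1 model. The study's methods correct for a batch they do not name, and the replicate number was the block here. Deviations from group means correlated between samples of the same number in all 18 pairs (r from 0.270 to 0.732, mean 0.544, over genes) and with a mean r of -0.267 between different numbers, so the numbers pair the samples. What same-numbered samples share is not stated. The prior count of fold changes was 0.125, and the SE was taken from the log2 fold change and the F statistic. No replicates were copies (chi-square per gene at least 13.2). The alternatives are DESeq2 (1.42.0), its size factors, other filters, no block, fewer groups and left-out samples. The fits were tested on simulated data.

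Values are given for every member called between 2 groups, for 11 members named for their roles, for members under the filter by their highest count and for the 3 genes per list with the smallest adjusted p in the combination treatment. The members and lists were chosen with earlier results of these data known. Lengths and positions came from GENCODE M21. Figures were drawn with matplotlib. Slc7a11 was left out by the rule. No per-sample column was left unused. 1 item is not reported here.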

Additional observations from a re-analysis of the deposited data

How the results depend on the processing

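The replicate block decided most calls. Without the replicate block, 0 members changed with SFN, 5 with the combination treatment and 0 between the combination treatment and DAC, in place of 8, 16 and 12, with the same directions. Of the 36 calls of single members between 2 groups, 5 remained without it, 23 when only the compared groups entered the fit, 34 with DESeq2 (Slc38a3 with the combination treatment at an adjusted p of 0.0712 and Slc38a6 between the combination treatment and DAC at 0.0737 were lost), 35 without a filter and 36 with DESeq2's size factors or at least 10 counts in every sample. No direction was reversed. With only the groups compared, 2 members changed with DAC, 3 between the combination treatment and DAC and 2 between the combination treatment and SFN. An unadjusted p under 0.05 was reached by 4 members with DAC, 14 with SFN and 3 between the combination treatment and SFN, beside 10.1%, 28.8% and 17.8% of all genes. At a fold change above 2 there were 0 with SFN, 0 with the combination treatment and 0 between it and DAC. Leaving out single samples or replicate numbers gave 6 to 7 calls with SFN, 7 to 16 with the combination treatment and 2 to 11 between it and DAC. The share of all genes called without the block, with only the compared groups or with samples left out was not counted. Whether the losses were particular to the members was not tested. The calls that held in all 9 such fits were those of Slc1a4, Slc38a2, Slc38a6, Slc6a8 and Slc7a1 with SFN and with the combination treatment, of Slc38a7 with SFN and of Slc1a4 between the combination treatment and DAC. Calls that were lost in 5 or more of the 9 with the combination treatment were those of Slc1a5, Slc6a17, Slc38a3 and Slc43a1, and against DAC those of Slc38a6, Slc6a9, Slc6a17, Slc38a10 and Slc38a7. The cause was not tested. At the filter, 1 CPM is 15.9 to 27.3 counts, so Slc38a3, Slc7a14 and Slc43a1 rest on few counts, as does Slc17a8, which is no member. For the 4 lists of other genes, the same alternatives were added after seeing the data. Their counts without the replicate block stand beside each list.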

Other observations

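Slc6a12, a carrier of betaine and GABA, was named after its values were seen. It had 45, 62, 23 and 34 counts in replicate 3 of control, DAC, SFN and DAC+SFN and at most 6 counts in any other sample. It reached 1 CPM in replicate 3 alone and so passed the filter only through those samples, and no p is given for this difference. Of the 28 tested members, 17 (60.7%) differed between replicate numbers at an adjusted p under 0.05, beside 3951 of 11638 genes (33.9%). The 17 include Slc6a12, which passed the filter only through replicate 3, so its place among them is no independent support. What the replicate numbers differ in is not given in the labels.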
